A study of Mus musculus with 16 samples.

Results

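The 81 nuclear genes described here are those named, by symbol, as subunits of respiratory complexes I to IV, cytochrome c or the ATP synthase (complex V). They were chosen by symbol from the probe sets (groups of array probes for 1 transcript) listed with exactly 1 gene symbol: symbols starting with Ndufa, Ndufb, Ndufc, Ndufs, Ndufv, Uqcr, Atp5 or Cox4 to Cox8, together with Sdha, Sdhb, Sdhc, Sdhd, Cycs and Cyc1. Assembly factors of the Ndufaf series and pseudogenes were left out, and the probe set with the highest mean stood for a gene. The 81 members, of 22180 genes measured, were divided by symbol alone. Complex I has 34, complex II 4, complex III 8, cytochrome c 1, complex IV 17 and complex V 17. Every Nduf symbol counts with complex I, Ndufa4 and Ndufa4l2 included, and every Cox symbol with complex IV. Another 8 symbols that meet the naming rule (Cox6c, Ndufb2, Ndufb4, Ndufb4b, Ndufb4c, Ndufs6, Ndufs6b and Uqcr10) occur only on probe sets listed with several symbols and are not members.

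CD8 T cells were sorted from the spleens of female mice (strain labelled C56BL/6) that carried bone marrow from wild-type (WT) or Il4i1 knockout (KO) donors. Il4i1 encodes a secreted L-amino acid oxidase. All animals, WT and KO alike, had received leukaemia cells from Eµ-TCL1 mice, a transgenic model in which the TCL1 oncogene is driven by a B cell enhancer and promoter and which develops a disease like chronic lymphocytic leukaemia. 5 weeks later, effector cells (CD44+ CD127-) and memory cells (CD44high CD127high) were collected, and 1 ng of RNA from each of 4 samples per group was put on a 1-colour array. The 4 groups are thus the effector cells of KO and of WT chimeras and the memory cells of KO and of WT chimeras. The labels do not say whether samples of a group came from separate animals, so the p-values measure the spread between these 16 samples, part of which may be technical.

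The respiratory chain passes electrons from NADH (complex I) and succinate (complex II) through complex III and cytochrome c to oxygen at complex IV. The proton gradient built on the way drives ATP synthesis at complex V. Most subunits are nuclear genes, while a small core of complexes I, III, IV and V is encoded by the mitochondrial genome. Quiescent and memory CD8 T cells are known for their reliance on mitochondrial respiration, and activated effector cells for strong glycolysis.

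Promoters of nuclear respiratory genes are known for sites of the factors NRF-1, the ETS-family factor GABP (NRF-2) and YY1. Promoter windows of 300 bases (250 before and 50 after the start of a transcript) were at hand from RefSeq, build GRCm38.p6, for 66 of the 81 members, 71 windows in all. Exact matches were counted on both strands to CCGGAAG (ETS; reverse complement CTTCCGG), GCGCATGC (NRF1; GCATGCGC) and AAGATGGC (YY1; GCCATCTT); the NRF1 forms can overlap each other, and matches of different motifs were counted separately. Among members above the array median on all 16 arrays, 26.2% of 65 windows held the ETS letters, 16.9% the NRF1 letters and 12.3% the YY1 letters. The shares in the 10477 windows of all genes at such levels were 18.3%, 5.35% and 4.63%, and those in all 32851 windows were 8.86%, 2.71% and 2.75%. Any of the 3 motifs was found in 30 of those 65 member windows (46.2%, against 25.8% of genes at such levels). These are counts of letters, not of bound sites. The stretches below run from 150 bases before to 30 after the start; they are those of Ndufa3, the member that differed between genotypes, of Ndufa6, Cox7a2l and Atp5g2, which differed between effector and memory cells, and of Cycs, the cytochrome c gene, whose promoter is a textbook NRF-1 target. Capitals mark the matches.
Ndufa3 (chr7:3617223-3617402, + strand): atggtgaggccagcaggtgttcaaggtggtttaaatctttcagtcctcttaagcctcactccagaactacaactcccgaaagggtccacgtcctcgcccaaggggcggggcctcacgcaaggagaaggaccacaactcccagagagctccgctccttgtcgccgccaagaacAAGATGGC
Ndufa6 (chr15:82354262-82354441, - strand): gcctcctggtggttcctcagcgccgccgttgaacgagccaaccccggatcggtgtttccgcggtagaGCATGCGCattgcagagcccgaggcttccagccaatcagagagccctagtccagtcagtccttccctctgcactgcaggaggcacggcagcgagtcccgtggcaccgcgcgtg
Cox7a2l (chr17:83514304-83514483, - strand): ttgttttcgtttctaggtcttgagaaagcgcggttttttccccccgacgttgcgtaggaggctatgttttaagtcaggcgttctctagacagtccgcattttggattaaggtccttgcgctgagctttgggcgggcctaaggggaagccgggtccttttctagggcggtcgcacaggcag
Atp5g2 (chr15:102671018-102671197, - strand): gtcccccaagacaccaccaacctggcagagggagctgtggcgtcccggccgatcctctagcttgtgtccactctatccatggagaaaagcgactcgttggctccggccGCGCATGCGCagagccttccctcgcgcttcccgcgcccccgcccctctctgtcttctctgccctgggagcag
Cycs (chr6:50566540-50566719, - strand): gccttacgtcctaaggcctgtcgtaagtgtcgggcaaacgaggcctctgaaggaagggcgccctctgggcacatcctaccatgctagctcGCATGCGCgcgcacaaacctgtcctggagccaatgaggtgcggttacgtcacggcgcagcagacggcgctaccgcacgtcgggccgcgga
The Ndufa3 stretch ends with the YY1 letters, the Ndufa6 and Cycs stretches hold the NRF1 letters in reverse, and that of Atp5g2 holds both NRF1 forms overlapping. No match lay in the Cox7a2l stretch.

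The gene of the sort marker CD127 followed the sort. This gene, Il7r, was at log2 values of 3.83 to 6.60 in effector and 10.29 to 11.27 in memory samples. Il7r was also higher in effector KO than in effector WT samples, by 1.65 (limma, adjusted p under 0.05). Over both subsets it was higher in KO by 1.02, called by the same test. All 7 CD8 T cell genes measured lay above the array median on all 16 arrays. B cell and leukaemia markers (9 of 10 measured) averaged 3.67 to 4.04 in effector, 4.16 to 4.57 in memory KO and 4.69 to 5.39 in memory WT samples; the array medians were 4.12 to 4.22. None of the 2 erythroid genes measured exceeded the median on all 4 arrays of a group. The mean of 34 cell cycle genes was 7.67 to 8.43 in effector and 7.89 to 8.16 in memory WT samples, but 6.89, 7.60, 8.10 and 6.84 on memory KO arrays 1 to 4. Effector KO 4 had the lowest top correlation with any other array (Pearson r of 0.974 over genes; the other 15 arrays reached 0.989 to 0.994). Il4i1 itself is read only by a probe set shared with Nup62 and Il4i1b, whose mean was 5.90 ± 0.11 in effector KO, 5.95 ± 0.06 in effector WT, 5.67 ± 0.14 in memory KO and 5.99 ± 0.06 in memory WT samples (SD, n = 4 each). That probe set does not check the genotype labels.

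Most of the respiratory genes were well above the array median and moved little. Of the 81 members, 71 lay above the median on all 16 arrays, and Cox7b2, Cox8b, Cox8c and Ndufa4l2 lay above it on none. The spread between samples of a group was small: the median within-group SD of these 71 members was 0.112 on the log2 scale, against 0.196 for all 10483 genes above the median on 16 arrays. The difference between the highest and the lowest group mean ranged from 0.02 (Cox7b) to 0.56 (Cox7a2l). Some dimmer probe sets of members with several were less flat. That of Cox7b was at -0.42 in memory KO against WT. The second probe set of Ndufa8 was at 0.68 in effector KO against WT, where the one used was at -0.01. That of Atp5h was at 0.54 in effector against memory over both genotypes, where the one used was at -0.06. Memory WT was the highest of the 4 groups for 35 members and the lowest for 5, and memory KO was the lowest for 31. In no comparison did more than 1 of the 81 members differ by over 0.5 on the log2 scale (1.23%), a size that 2.66% to 9.53% of all genes passed. By array, the mean of the 34 complex I genes was 8.43, 8.51, 8.48 and 8.37 in effector KO, 8.48, 8.50, 8.49 and 8.48 in effector WT, 8.41, 8.42, 8.56 and 8.49 in memory KO and 8.63, 8.58, 8.64 and 8.47 in memory WT samples. The ranges of these means overlap between memory KO and WT, and memory WT 4 is the low array of its group.

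**Figure D1:**
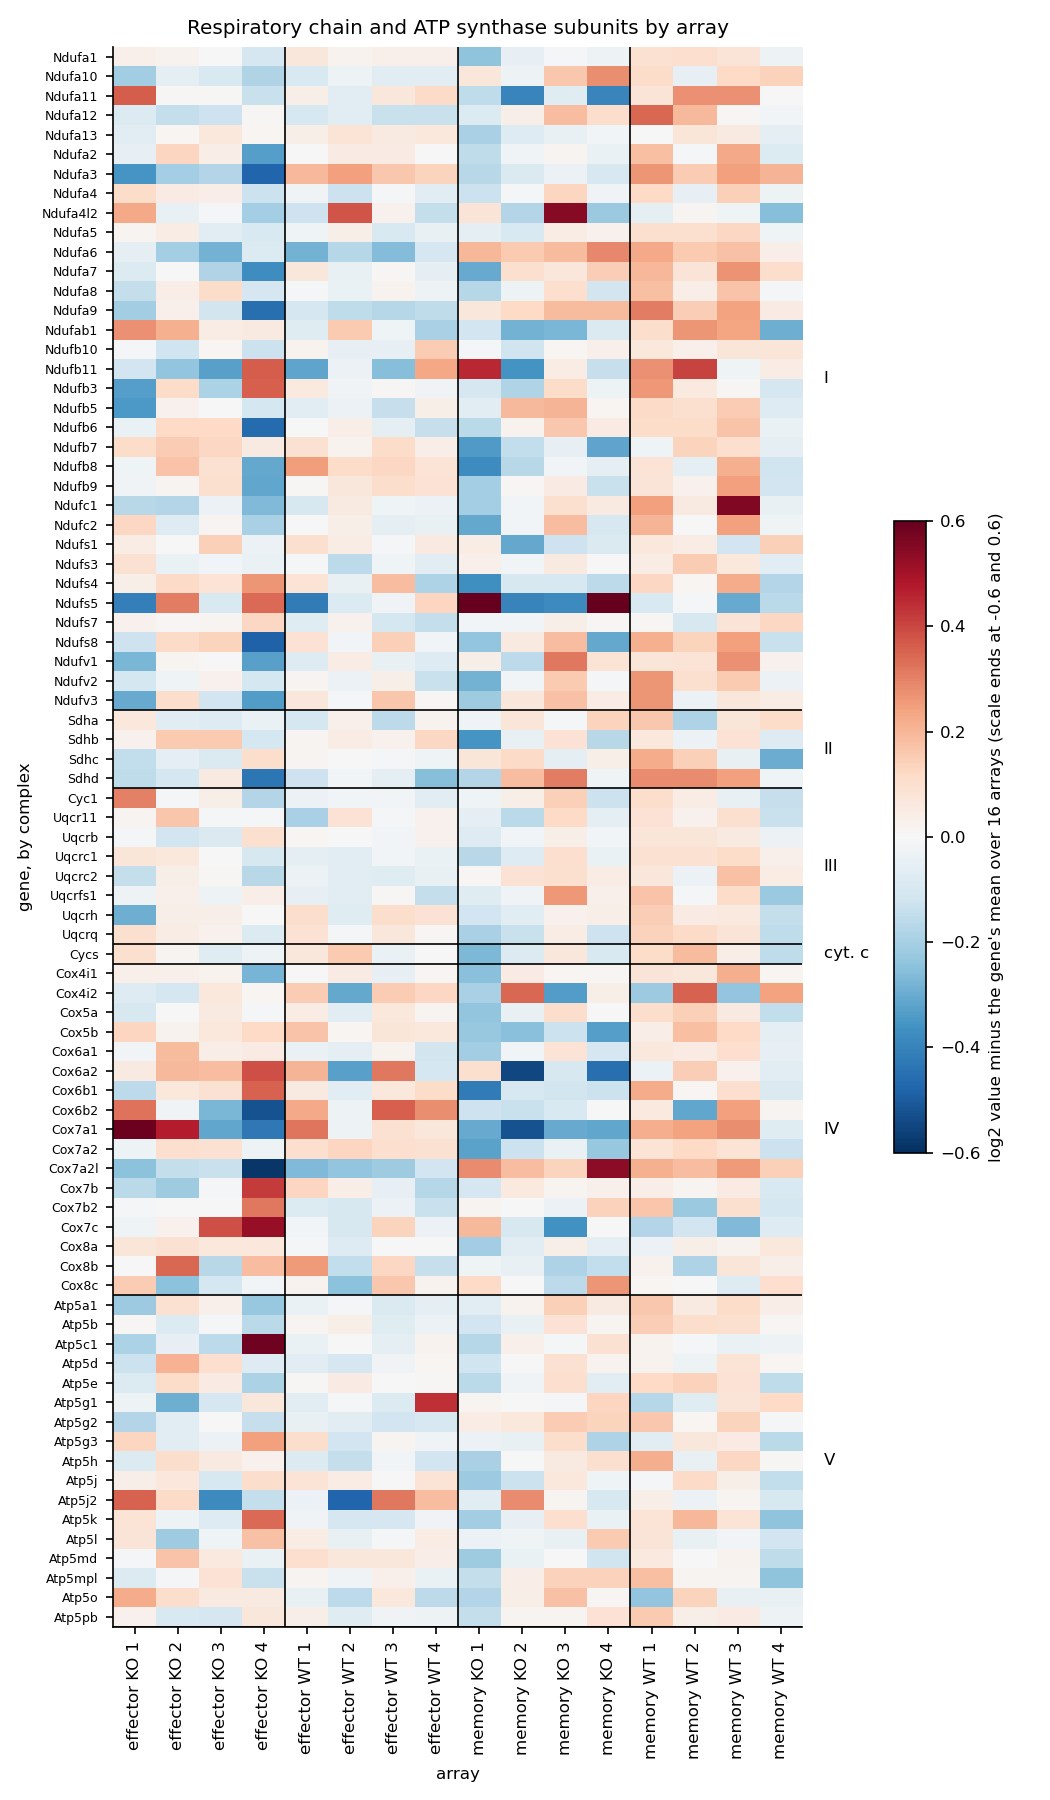
Heat map of the 81 subunit genes (rows, by complex) on the 16 arrays (columns, by group); colour is the log2 value minus the gene's mean over 16 arrays, with the scale ending at -0.6 and 0.6. Most rows are pale; Ndufa3 is blue on all 8 KO arrays and red on all 8 WT arrays, Ndufa6 and Cox7a2l are red on all 8 memory arrays, and memory KO 1 is blue for most genes.

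The clearest difference between KO and WT chimeras lay in a single subunit gene, Ndufa3, an accessory subunit of the membrane arm of complex I that lies on chromosome 7, the chromosome of Il4i1. Ndufa3 was at 9.67, 9.82, 9.85 and 9.55 in effector KO samples and at 10.22, 10.27, 10.19 and 10.16 in effector WT samples. In memory cells it was at 9.86, 9.94, 9.99 and 9.93 in KO and at 10.29, 10.18, 10.27 and 10.23 in WT samples. Every KO sample was below every WT sample in both subsets. Ndufa3 fell by 0.49 ± 0.08 (SE) in effector cells, which is 1.40-fold (adjusted p = 0.0383, limma with Benjamini-Hochberg adjustment over 22180 genes). It was the only member past the threshold of 0.05 there, in a comparison that called 0.0541% of all genes. Over both subsets it fell by 0.40 ± 0.06, or 1.32-fold (adjusted p = 0.00453), again as the only member, with 0.194% of all genes called; the next member by p, Cox5b, was at -0.15 ± 0.06 (adjusted p = 0.254). In memory cells the difference was -0.32 ± 0.08 (adjusted p = 0.167), and that comparison called none of the 81 members by limma and 0.113% of all genes. At an unadjusted p under 0.05 there were 8 members there (9.88%), against 11.3% of all genes.

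The call for Ndufa3 in effector cells was lost in 13 of the 16 fits that left out 1 array (adjusted p from 0.0326 to 0.17; it held without effector KO 2, effector KO 3 or memory KO 1), while its size stayed between -0.53 and -0.43. Over both subsets the call held in all 16 such fits, with the difference between -0.43 and -0.38. With memory KO 1 and memory KO 4, the 2 arrays lowest in cell cycle genes, left out together, it was -0.39 (adjusted p = 0.0539).

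Beside Ndufa3, 1 of its closest neighbours was past the threshold, in the other direction. Of the 20 nearest measured genes, 10 on each side in RefSeq's order, only Myadm was past the threshold in any KO-against-WT comparison, and it was higher in KO (0.80 ± 0.10 over both subsets, adjusted p = 0.00174). The genes next to Ndufa3 were at 0.08 ± 0.08 (Oscar, below the array median on all 16 arrays) and 0.07 ± 0.09 (Tfpt). On the whole of chromosome 7, 20 of 1948 genes (1.03%) were past the threshold over both subsets, 6 higher and 14 lower, against 23 genes (0.114%) on all other chromosomes and unplaced. Counted along the chromosome, 1 of 10 genes before Ndufa3, 15 of 746 between Ndufa3 and Il4i1, and 3 of 1191 beyond Il4i1 were called. The part that this stretch of chromosome plays in the Ndufa3 difference was not tested.

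**Figure D2:**
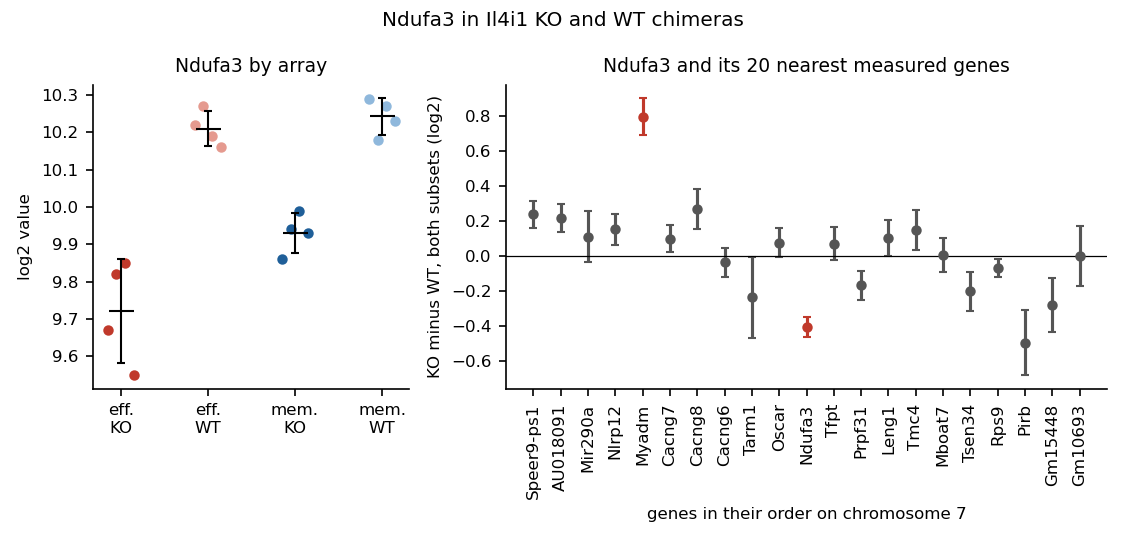
Left, log2 value of Ndufa3 on each array (points) with the mean and SD of each group (n = 4; eff., effector; mem., memory); right, KO minus WT over both subsets (log2, bars are SE) for Ndufa3 and the 20 nearest measured genes in chromosome order, with the 2 genes past the threshold in red. The KO samples sit between 9.55 and 9.99 and the WT samples between 10.16 and 10.29, and Myadm lies on the other side of 0 at 0.80.

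The other 8 members on chromosome 7 (Cox6b2, Cox7a1, Cox6b1, Ndufc2, Uqcrc2, Ndufab1, Cox6a2 and Cox8b) were all below 0 in KO against WT over both subsets, but none passed the threshold. With Ndufa3, the median of these 9 was -0.09, against -0.05 for the 72 members elsewhere, of which 46 were below 0. Their largest difference was that of Cox7a1, the heart and muscle form of a complex IV subunit (-0.28 ± 0.13, adjusted p = 0.363). Its values in memory cells were 4.67, 4.45, 4.67 and 4.66 in KO and 5.19, 5.21, 5.25 and 4.90 in WT samples. These 2 groups do not overlap (-0.52 ± 0.19, adjusted p = 0.301), and in effector cells Cox7a1 ranged from 4.54 to 5.56 in KO samples, around its WT range of 4.94 to 5.29.

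In memory cells, small differences of 1 sign prevailed over the members as a whole. Of the 81 members, 62 were lower in memory KO than in memory WT, with a median of -0.08, while 10034 of all 22180 genes were lower and their median was 0.02. Among genes above the array median on all 16 arrays, 57 of 71 members were lower (median -0.08), beside 5415 of all 10483 (median -0.01). By complex, 29 of 34 genes of complex I (median -0.11), 2 of 4 of complex II, 6 of 8 of complex III (-0.06), 13 of 17 of complex IV (-0.09) and 11 of 17 of complex V (-0.02) were lower. The count of lower members was 56 after quantile normalization and 65 after median centring, and it ran from 57 (without memory KO 1) to 67 (without memory WT 4) when 1 array was left out. The median without memory KO 1 was -0.04, and without both memory KO 1 and memory KO 4 it was -0.03. Cell cycle genes moved with this comparison: all 34 were lower in memory KO, with a median of -0.79, though none was called in the fit of 16 arrays. B cell markers were lower too (9 of 9; 1 of them past the threshold). Of the myeloid markers 6 of 8 were lower in memory KO (median -0.31), and of the NK cell markers 3 of 5 (median -0.22), with none called in either list and 2 and 3 at an unadjusted p under 0.05. The part of these lists in the members' differences was not tested.

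6 members did not overlap between memory KO and memory WT, all lower in KO, and 3 did not overlap between the effector groups (7.41% and 3.70% of 81); over all genes these shares were 6.49% and 4.65%. Among the 6, after Ndufa3, stood Cox5b, a subunit on the matrix side of complex IV, at 9.67, 9.65, 9.77 and 9.57 in memory KO and 9.94, 10.08, 10.02 and 9.84 in memory WT samples (-0.30 ± 0.08, adjusted p = 0.176). Ndufa11, an accessory subunit of the complex I membrane arm, was at 8.66, 8.42, 8.74 and 8.42 in memory KO and 8.89, 9.09, 9.09 and 8.81 in memory WT samples (-0.41 ± 0.12, adjusted p = 0.198). In effector cells the differences of these genes were 0.00 ± 0.08 and 0.02 ± 0.12. Each has a second, dimmer probe set. In memory KO against WT that of Cox5b was at -0.25, but that of Ndufa11 only at -0.07. The test of the difference between subsets (interaction) called 0% of all genes and none of the members by limma; at an unadjusted p under 0.05 there were 5 members (6.17%), against 5.84% of all genes. The interaction was 0.31 ± 0.11 for Cox5b and 0.43 ± 0.16 for Ndufa11 (adjusted p = 0.841 for both).

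**Figure D3:**
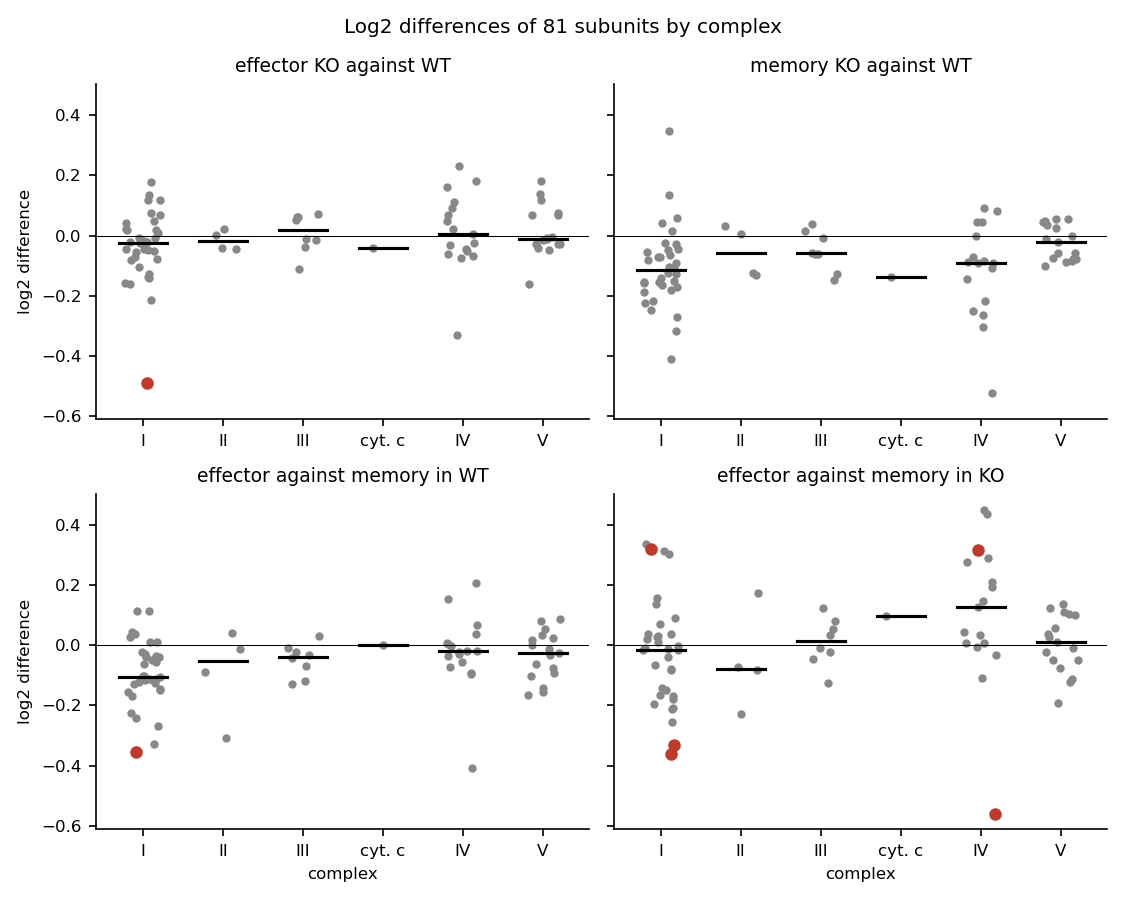
Log2 difference of each of the 81 genes (points) by complex in 4 comparisons (panel titles; the first group minus the second), with the median of each complex as a bar and genes past the adjusted p threshold of 0.05 in red. Ndufa3 is the red point for effector KO against WT, no point is red for memory KO against WT, and in KO cells effector against memory has red points on both sides of 0.

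Between effector and memory cells, 5 members changed over both genotypes, and all 5 were lower in effector cells in the fit of the values as deposited. They make 6.17% of the 81, in a comparison that called 12.2% of all genes, 7.11% as lower and the rest as higher. Cox7a2l, placed here with complex IV by its symbol, was at 7.83, 7.93, 7.94 and 7.49 in effector KO and 7.81, 7.84, 7.86 and 7.96 in effector WT samples. In memory cells it was at 8.36, 8.26, 8.21 and 8.61 in KO and 8.29, 8.26, 8.33 and 8.22 in WT samples. All 8 effector samples lay below all 8 memory samples. It fell by 0.48 ± 0.08, or 1.40-fold (adjusted p = 0.000468).

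Ndufa6, an accessory subunit of complex I, was at 9.51, 9.36, 9.28 and 9.48 in effector KO, 9.28, 9.39, 9.30 and 9.46 in effector WT, 9.76, 9.72, 9.75 and 9.85 in memory KO and 9.79, 9.72, 9.74 and 9.60 in memory WT samples. Here too the 8 effector samples lay below the 8 memory samples (-0.36 ± 0.06, 1.28-fold, adjusted p = 0.000611). Ndufa9, a subunit at the junction of the arms of complex I, was at 9.79, 10.03, 9.89 and 9.55 in effector KO, 9.90, 9.85, 9.83 and 9.85 in effector WT, 10.07, 10.12, 10.19 and 10.19 in memory KO and 10.31, 10.15, 10.24 and 10.05 in memory WT samples. It fell by 0.33 ± 0.07, or 1.26-fold (adjusted p = 0.00412), with no overlap between subsets within either genotype. Ndufa10 (complex I, -0.20 ± 0.06, adjusted p = 0.0356) and Atp5g2, a gene for the c subunit of the ATP synthase ring (-0.17 ± 0.05, adjusted p = 0.046), were smaller changes near the threshold.

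Cox7a2l, Ndufa6 and Ndufa9 passed in all 16 fits without 1 array, whereas the call for Ndufa10 was lost in 10 of them and that for Atp5g2 in 12. The count of 5 rose to 8 without memory KO 1, and it was 3 without effector KO 1, any one of the effector WT arrays, memory KO 4, memory WT 1 or memory WT 3. Median centring also called 5, but not the same 5. Cox7a2l, Ndufa6 and Ndufa9 were lower there, and Cox5b and Ndufb7 higher, in effector cells. B cell markers moved with this comparison, 7 of 9 being lower in effector cells by the same test with a median of -0.85. Of the NK cell markers 3 of 5 were called lower and 1 higher (median -0.40), and of the myeloid markers 3 of 8 were called lower and 1 higher (median -0.40). Cell cycle genes were higher in effector cells, 11 of 34 past the threshold over both genotypes (median 0.50), 14 in KO and 0 in WT. The part of these lists in the members' differences was not tested. By genotype the differences were -0.56 ± 0.11 in KO and -0.41 ± 0.11 in WT for Cox7a2l, -0.36 ± 0.08 and -0.35 ± 0.08 for Ndufa6, and -0.33 ± 0.10 in both for Ndufa9.

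**Figure D4:**
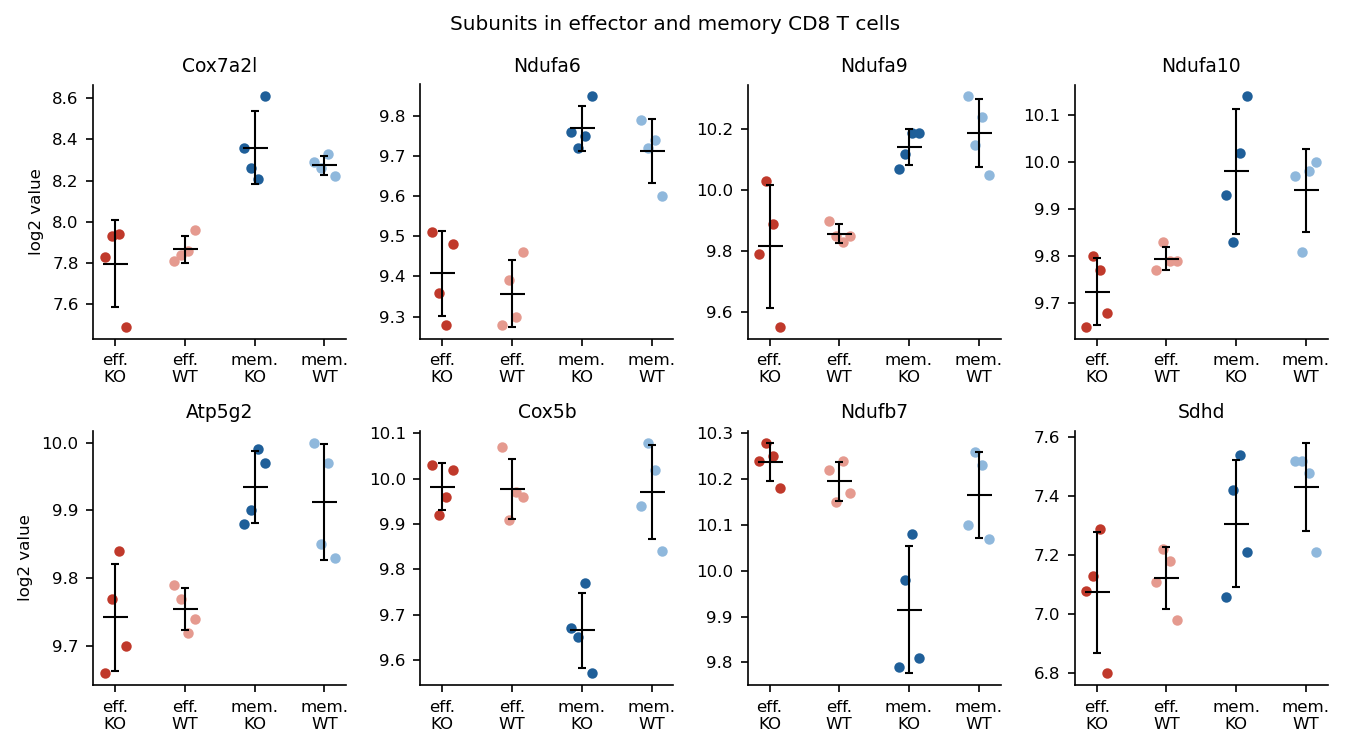
Log2 value on each array (points) with the mean and SD of each group (n = 4; eff., effector; mem., memory) for the 5 members lower in effector than in memory cells over both genotypes, the 2 higher in effector than in memory cells among KO samples, and Sdhd. For Cox7a2l and Ndufa6 all 8 effector points lie below all 8 memory points; for Cox5b the memory KO points, 9.57 to 9.77, lie below all others. The y axes do not start at 0.

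Within one genotype, Ndufa6 alone passed in WT cells (-0.35 ± 0.08, adjusted p = 0.026; 3.22% of all genes were called), and Cox7a2l lay just outside (adjusted p = 0.0513). In KO cells 5 members passed, with 7.43% of all genes called: Cox7a2l (adjusted p = 0.00455), Ndufa6 (0.0131) and Ndufa9 (0.0492) were lower in effector cells, and Cox5b (0.32 ± 0.08, adjusted p = 0.024) and Ndufb7, a subunit of complex I on the intermembrane side (0.32 ± 0.08, adjusted p = 0.0281), were higher. Ndufb7 was at 10.24, 10.28, 10.25 and 10.18 in effector KO, 10.22, 10.15, 10.24 and 10.17 in effector WT, 9.79, 9.98, 10.08 and 9.81 in memory KO and 10.10, 10.26, 10.23 and 10.07 in memory WT samples. For both Cox5b and Ndufb7 the memory KO samples are the low ones, and the 2 comparisons of memory KO share those samples. In WT cells the differences between subsets were 0.01 ± 0.08 and 0.03 ± 0.08. All 5 calls in KO cells were lost without memory KO 1 and memory KO 4, which leaves 2 memory KO arrays; the differences were then -0.44 for Cox7a2l, -0.32 for Ndufa6, -0.34 for Ndufa9, 0.27 for Cox5b and 0.21 for Ndufb7. Without single arrays the count fell to 2 (without effector KO 1 or memory KO 4) or 3 (without effector KO 3). The Ndufa9 call in KO cells was lost in 15 of these 16 fits, that of Ndufb7 in 5 and that of Cox5b in 3. Those of Cox7a2l and Ndufa6 held in all 16. The Cox5b call was also lost with the mean of its probe sets. The call for Ndufa6 in WT cells was lost in 6 of the 16 fits without 1 array, each of them without replicate 1, 2 or 3 of a WT group, and the count in WT rose to 3 without effector KO 4 and 2 without memory KO 4. Effector and memory samples did not overlap for 9 members in WT (11.1%; 13.2% of all genes) and for 12 in KO cells (14.8%; 10.2%).

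None of the 4 subunits of complex II, which is also the succinate dehydrogenase of the citric acid cycle, passed the threshold in any of the 7 comparisons in the fit of 16 arrays and all genes. Sdhd, a membrane anchor, came closest: its means were 7.08 ± 0.21 in effector KO, 7.12 ± 0.10 in effector WT, 7.31 ± 0.21 in memory KO and 7.43 ± 0.15 in memory WT samples (SD, n = 4 each), and effector cells were lower by 0.27 ± 0.09 (adjusted p = 0.0581). That difference passed with the filter on dim genes, without effector KO 3, memory KO 1 or memory WT 4, and with memory KO 1 and memory KO 4 left out together. The catalytic subunits Sdha and Sdhb were at -0.08 ± 0.06 and 0.11 ± 0.07 in effector against memory over both genotypes, and the anchor Sdhc at -0.05 ± 0.07. In KO against WT over both subsets the 4 lay between -0.09 (Sdhd) and 0.01 (Sdha).

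The 8 genes of complex III had differences from -0.12 to 0.06 between subsets and from -0.08 to 0.05 between genotypes, each over the other factor. Cyc1, the cytochrome c1 of complex III, differed by 0.01 ± 0.07 between subsets and 0.04 ± 0.07 between genotypes. Uqcrc2, a core protein of complex III, was at -0.12 ± 0.06 (adjusted p = 0.197) and Uqcrb at -0.02 ± 0.05 between subsets. Cycs, the soluble electron carrier, was at 11.07, 10.99, 10.90 and 10.94 in effector KO, 11.04, 11.13, 10.93 and 10.97 in effector WT, 10.70, 10.89, 11.04 and 10.88 in memory KO and 11.08, 11.16, 11.01 and 10.82 in memory WT samples. All 4 groups overlap, and the difference was 0.05 ± 0.07 between subsets and -0.09 ± 0.07 between genotypes.

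Several complex IV subunits exist as a ubiquitous and a tissue-restricted form, and the forms differed in how many arrays held them above the array median, which is not a detection limit. The ubiquitous Cox4i1, Cox6a1, Cox6b1, Cox7a2 and Cox8a lay above the array median on all 16 arrays. Of the restricted forms, Cox8b, found in heart and muscle, and Ndufa4l2 lay above it on none. Ndufa4l2, a hypoxia-linked relative of Ndufa4, is counted here with complex I by its symbol. Cox4i2, a lung form, lay above the array median on 6 arrays, Cox6a2 of muscle on 11 and Cox6b2 of testis on 15. Cox7a1 was above the array median on all 16, at 4.45 to 5.56. No member of these pairs other than Cox7a2l passed the threshold in any comparison. Cox7a2 was at 0.14 ± 0.06 in effector against memory (adjusted p = 0.17) and -0.15 ± 0.06 in KO against WT (adjusted p = 0.293), and Cox7c at 0.22 ± 0.09 (adjusted p = 0.152) and 0.16 ± 0.09 (adjusted p = 0.457).

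The 17 genes of complex V, the ATP synthase, lay between -0.07 and 0.12 in KO against WT over both subsets, 7 of them below 0. Atp5a1 and Atp5b, the catalytic head subunits, were at -0.04 ± 0.06 and -0.07 ± 0.06 in KO against WT, and at -0.13 ± 0.06 (adjusted p = 0.244) and -0.08 ± 0.06 (adjusted p = 0.477) in effector against memory. Atp5o, of the peripheral stalk, had the highest value between genotypes (0.12 ± 0.07, adjusted p = 0.465), Atp5e was at -0.06 ± 0.07, and Atp5md, a small membrane subunit, at -0.05 ± 0.06. Atp5g2 was the gene of this complex past the threshold between subsets. Its second probe set differed in the same direction (-0.14 against -0.17).

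The 10 subunits of complexes I, III and IV measured from the mitochondrial genome differed from the nuclear members in their size of change. All 10 were lower in effector than in memory cells over both genotypes, with a median of -0.21 against -0.02 for the 81 nuclear members, and 5 of them fell past the threshold. ND3 was at 8.49, 8.73, 8.43 and 8.81 in effector KO, 8.53, 8.93, 8.46 and 8.64 in effector WT, 9.41, 9.45, 9.58 and 9.84 in memory KO and 9.50, 9.03, 9.22 and 8.89 in memory WT samples (-0.74 ± 0.10, adjusted p = 0.000152). ND2 fell by 0.68 ± 0.10 (adjusted p = 0.000171), ND5 by 0.34 ± 0.08 (adjusted p = 0.00865), ND4L by 0.57 ± 0.17 (adjusted p = 0.0399) and COX3 by 0.23 ± 0.06 (adjusted p = 0.0235). COX1 (-0.03 ± 0.07) and ND6 (-0.02 ± 0.17) were near 0, so the fall over both genotypes differed in size within this genome. For ND6 that mean joins unlike genotypes. Effector WT samples, at 6.81 to 6.93, lay below memory WT samples, at 7.02 to 7.25. Effector KO samples were at 7.57, 7.02, 6.92 and 8.42, and memory KO samples at 6.86 to 7.67. COX1, at 12.26 to 12.73, was among the brightest signals on the arrays. The number that fell was 4 after median centring and 5 after quantile normalization, and 3 without effector KO 3, without memory KO 4 or without memory WT 1. ND3 and ND2 were at -0.96 ± 0.15 and -0.97 ± 0.14 in KO cells and at -0.52 ± 0.15 and -0.39 ± 0.14 in WT cells; the interaction was -0.44 ± 0.21 and -0.58 ± 0.19 (adjusted p = 0.841 for both).

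In memory cells and over both subsets, the 10 mitochondrial genes leaned the other way from the nuclear ones in KO against WT. In effector cells 5 of them were higher in KO and 5 lower, with a median of 0.01. All 10 were higher in KO over both subsets, with a median of 0.11, and all 10 were higher in memory KO, with a median of 0.15. Of all 22180 genes, 12315 and 12145 were higher in these 2 comparisons. None of the 10 passed limma's test in either comparison. At an unadjusted p under 0.05 there were 3 (30%) and 4 (40%) of them, beside 13.9% and 11.3% of all genes. In memory cells, quantile normalization put 1 of the 10 below 0. B cell markers and cell cycle genes moved with the memory comparison here too, and their part was not tested. In bulk samples, less RNA per cell and fewer cells of a type cannot be told apart.

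**Figure D5:**
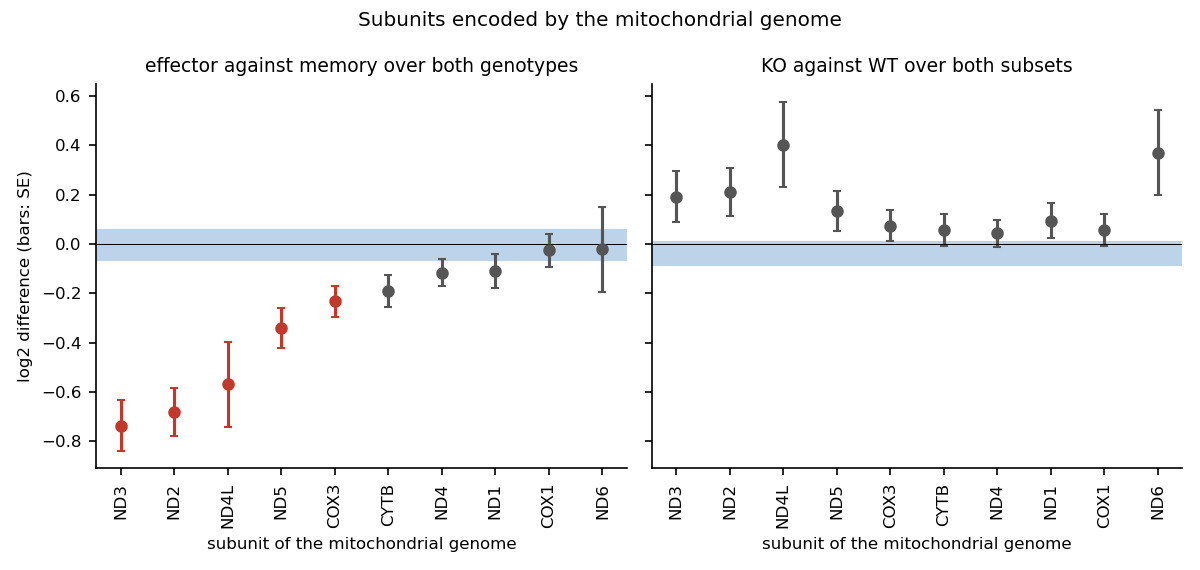
Log2 difference (points; bars are SE) of the 10 measured subunits of the mitochondrial genome in effector against memory over both genotypes (left) and KO against WT over both subsets (right), with genes past the adjusted p threshold of 0.05 in red; the blue band spans the middle of the distribution (between the lower and upper quartiles) of the 81 nuclear members. The 5 red genes on the left reach from -0.74 to -0.23, and all points on the right lie above 0.

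Among the genes that build or control the chain, the changes between subsets were again mostly falls in effector cells. Of 44 assembly factors measured, 7 fell and none rose: Uqcc3 (complex III, -0.44 ± 0.07, adjusted p = 0.000309), Nubpl (complex I iron-sulphur clusters, -0.63 ± 0.12, adjusted p = 0.0016), Ndufaf4 (complex I, -0.43 ± 0.08, adjusted p = 0.00272) and Cox10 (haem a synthesis for complex IV, -0.51 ± 0.11, adjusted p = 0.00588) had the smallest p, beside Cox16, Bcs1l and Ndufaf8. Uqcc3 was at 8.88 to 9.12 in the 8 effector samples and at 9.20 to 9.60 in the 8 memory samples. 7 of 44 is 15.9%, beside the 7.11% of all genes that were lower and the 11.8% among the 10483 genes above the array median on all 16 arrays. In the same comparison 12.2% of all genes and 21.0% of those 10483 were called in either direction, which also stands beside the counts of both lists that follow. The count of falls was 6 to 8 in the fits without 1 array, and 4 without memory KO 1 and memory KO 4.

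Of 19 regulators of mitochondrial gene expression, 4 fell in effector cells and 1 rose. These 5 make 26.3%, beside 12.2% of all genes called and 21.0% of those above the array median on 16 arrays. Ppargc1b, a PGC-1 family coactivator of respiratory genes, was at 4.67, 4.86, 4.85 and 4.23 in effector KO, 4.99, 4.56, 4.97 and 4.87 in effector WT, 5.56, 5.62, 5.45 and 6.00 in memory KO and 5.43, 5.32, 5.61 and 5.51 in memory WT samples, without overlap (-0.81 ± 0.11, adjusted p = 7.99e-05). Pprc1, another member of that family, fell by 0.38 ± 0.08 (adjusted p = 0.00588), Myc by 0.87 ± 0.15 (adjusted p = 0.000997) and Twnk, the mitochondrial DNA helicase, by 0.67 ± 0.18 (adjusted p = 0.0196). Gabpb1, which encodes a partner of the ETS factor GABP, rose by 0.36 ± 0.09 (adjusted p = 0.012).

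The citric acid cycle feeds electrons to the chain, and of its 17 genes measured 4 fell and 1 rose in effector cells. That is 29.4% called, beside 12.2% of all genes and 21.0% of those above the array median on 16 arrays. Idh2, the mitochondrial NADP-dependent isocitrate dehydrogenase, was at 4.88 to 5.96 in effector and 6.04 to 6.76 in memory samples (-1.08 ± 0.13, 2.12-fold, adjusted p = 4.32e-05). Suclg2 and Suclg1, subunits of succinyl-CoA ligase, fell by 0.70 ± 0.10 (adjusted p = 0.000223) and 0.28 ± 0.06 (adjusted p = 0.00719), and Dlat of pyruvate dehydrogenase by 0.26 ± 0.08 (adjusted p = 0.0408). Idh3a, of the NAD-dependent isocitrate dehydrogenase, rose by 0.40 ± 0.09 (adjusted p = 0.00871). In KO against WT over both subsets no gene of the assembly, regulator or citric acid cycle lists passed the threshold by limma (3 of 44, 1 of 19 and 3 of 17 had an unadjusted p under 0.05; 13.9% of all genes did).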

How the data were processed

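RNA of 16 samples in 4 groups was measured on 1-colour Affymetrix arrays from labelled cDNA (GeneChip WT Pico kit, 1 ng of total RNA), per the labels' protocols. The authors deposited a series matrix whose values were read as log2 intensities already normalized between arrays, from their range (0.74 to 14.0) and array medians (4.12 to 4.22). No source used here states how the authors corrected background, normalized and summarised these log2 values, or the log base. Array number, not read depth, limits the precision. Of 41345 probe sets, 23521 had 1 symbol in GEO's platform annotation, 1814 several and 16010 were not listed; 23328 matched RefSeq by gene ID, and the best probe set (highest mean) gave 22180 genes. limma 3.58.1 (R 4.3.3) fitted 1 mean per group over all 16 arrays, with 12 residual and 4.23 prior degrees of freedom, for 7 comparisons that share samples; adjusted p under 0.05 (Benjamini-Hochberg over all genes) was called. The fit was checked on simulated data. Alternatives were an intensity trend, a filter on dim genes, quantile normalization, median centring, means of probe sets, array weights, fits of only 2 groups, replicate blocks and leaving out arrays. The replicate numbers did not meet the rule for pairing (below). The members and lists were chosen with earlier results of these data known. Named genes are those past the threshold, the 3 smallest p per complex between subsets and between genotypes, the Sdh genes, Cycs, Cyc1, tissue forms, members on chromosome 7 and the leading genes of each list; neighbours of Ndufa3 were named for their place.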

Additional observations from a re-analysis of the deposited data

Results flagged for a closer look

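Within groups of 4 samples, single arrays stood apart from the other 3 in 13 of 184 groups checked by Dixon's test (7.07%), where chance gives about 1 in 20. The low array was memory WT 4 for the mean of complex V (8.57, others 8.68 to 8.70), Atp5e (10.1, others 10.34 to 10.39), Cox7a2 (11.22, others 11.43 to 11.47) and Sdhd (7.21, others 7.48 to 7.52). It was memory KO 1 for Cox4i1 (11.12, others 11.38 to 11.42) and Cox6b1 (8.64, others 8.93 to 8.96), memory KO 2 for Cox7a1 (4.45, others 4.66 to 4.67) and memory WT 2 for Ndufa10 (9.81, others from 9.97 up). In effector cells it was effector KO 4 for Cox4i1 (11.09, others 11.39 to 11.40), effector KO 1 for Uqcrh (7.32, others 7.61 to 7.65) and effector WT 2 for Uqcrh (7.54, others 7.70 to 7.72), Cox8a (9.97, others 10.04 to 10.05) and Cox4i2 (3.78, others 4.21 to 4.24). All 13 were low rather than high. None of these genes passed the threshold in KO against WT, and of those named here only Ndufa10 passed between subsets.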

How the results depend on the processing

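Counts of members past the threshold are given here under each setting that moved them by over 1.5 times. In effector KO against WT the 1 call (Ndufa3) became 0 in the fit of only the 8 arrays of the 2 groups, 0 with a replicate block and 0 with memory KO 1 and memory KO 4 left out together (a setting chosen after seeing the data), and was 0 to 1 without single arrays. Over both subsets the 1 call became 0 when those 2 arrays were left out, and stayed 1 without each single array. For effector against memory in WT the 1 call became 3 with an intensity trend, 2 with the filter on dim genes, 2 with quantile normalization, 3 with array weights, 3 in the fit of 8 arrays, 0 with a replicate block and 2 without the 2 memory KO arrays (0 to 3 without single arrays). In KO the 5 calls became 0 in the fit of 8 arrays, 2 with a replicate block and 0 without the 2 arrays (2 to 5 without single arrays). Over both genotypes the 5 calls became 9 with an intensity trend (3 higher, 6 lower) and 9 with the filter on dim genes (2 higher, 7 lower), and were 3 to 8 without single arrays. Median centring left the count at 5 but changed its genes, with 2 higher (Cox5b and Ndufb7) and 3 lower (Cox7a2l, Ndufa6 and Ndufa9). The counts of 0 for memory KO against WT and for the interaction stayed 0 in all settings run. Of 344 refits of the 14 gene results, none reversed a direction, 252 stayed on the same side of the threshold and 92 lost a call.

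Same-numbered effector and memory samples correlated in their deviations from the group means at 0.018 to 0.147 in KO and 0.087 to 0.239 in WT, so not all pairs passed 0.1 and the numbers were not taken to pair samples. By these correlations 3 of 4 KO and 4 of 4 WT samples matched their own number best. The replicate block tied same-numbered effector and memory samples of a genotype for comparisons of subsets. For KO against WT within a subset it tied same-numbered KO and WT samples, and over both subsets all samples of a number. Same-numbered KO and WT samples correlated at -0.032 to 0.138 in effector and 0.016 to 0.119 in memory cells. With these blocks, 1 member (Ndufa3) was called in KO against WT over both subsets. In effector against memory over both genotypes 4 were called (Cox7a2l, Ndufa6, Ndufa9 and Sdhd, but not Ndufa10 or Atp5g2). The blocks ended the calls of Ndufa3 in effector cells, Ndufa6 in WT, and Cox5b, Ndufb7 and Ndufa9 in KO. Signal limits what can be said of Cox7b2, Cox8b, Cox8c and Ndufa4l2, which exceeded the array median on none of the 16 arrays.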

Other observations

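The 8 subunit symbols found only on probe sets with several symbols gave values in the same narrow range. The brighter probe set of Cox6c (shared with Gm6265) averaged 10.76 ± 0.09 in effector KO, 10.83 ± 0.02 in effector WT, 10.77 ± 0.14 in memory KO and 10.89 ± 0.10 in memory WT samples (SD, n = 4 each). That of Ndufs6 and Ndufs6b averaged 10.32 ± 0.09, 10.35 ± 0.09, 10.22 ± 0.15 and 10.40 ± 0.23 in the same order. Ndufb2 (shared with Adck2) was at -0.02 in effector KO against WT and -0.10 in memory KO against WT, the probe set of Ndufb4, Ndufb4b and Ndufb4c at -0.07 and -0.12, and Uqcr10 (shared with Gm6293) at -0.11 and 0.02. Signals of the paired genes cannot be separated on these probe sets.

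Effector KO 4, the array with the lowest top correlation, had the highest ND6 value (8.42, other effector KO samples 6.92 to 7.57) and the lowest Twnk value (3.84, others 4.89 to 5.29) of its group.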
